A study of Mus musculus with 10 samples.

Results

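Collagens are the family of triple-helical proteins that make up much of the extracellular matrix, and the transcripts of 44 collagen genes were followed here in cultured mouse neurons after treatment with SP600125, which blocks the stress-activated kinase JNK. The genes were taken as every symbol made of Col, a number, the letter a and a number, among 19938 genes measured by probe sets that carry exactly 1 symbol. Where a gene had several probe sets, the one with the highest mean over all 10 arrays stood for it, which concerned 2 collagens, Col6a5 and Col6a6. By class there were 11 fibrillar chains, 6 type IV chains of basement membranes, 9 fibril-associated chains, 6 type VI chains, 2 multiplexins, 4 transmembrane collagens, 3 chains of hexagonal networks, the anchoring fibril chain Col7a1, and Col26a1 and Col28a1, which were left without a class.

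Each collagen molecule is a helix of chains, built either from copies of one gene product or from the products of several related genes. Fibrillar collagens assemble into the tensile fibres of connective tissue, fibril-associated collagens sit on the surface of those fibres, and type IV collagens form the sheet-like network beneath epithelia and around vessels and nerves. In the nervous system, fibrillar collagens are mostly products of meningeal, perivascular and other mesenchymal cells, whereas several transmembrane and basement membrane collagens take part in axon growth and synapse formation.

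The arrays were Affymetrix whole-transcript arrays, 1 per sample, hybridised with total RNA from terminally differentiated neurons in culture, of the mixed strain 129Sv-C57Bl/6. The SP600125 group (5 samples, replicates a to e) received 25 µM of the drug in 3 doses spaced 2 hours apart, and the DMSO group (5 samples, replicates a to e) received the solvent on the same schedule. In both groups, letters a and b stand for drug batch 1 and the other letters for drug batch 2, the batches being different lots of the drug. The letters mark biological replicates, but the labels do not say that these were separate cultures or animals, so p-values measure the spread between these samples. The time of harvest after the last dose is not given in the sources used here.

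Values are log2 expression values as deposited, and every change is SP600125 minus DMSO from a limma fit with drug batch as a term, given with its moderated SE and a p adjusted by Benjamini-Hochberg over all 19938 genes; a gene passed at an adjusted p under 0.05. Arrays correlated with others of their group at 0.987 to 0.992 for SP600125 and 0.990 to 0.993 for DMSO. Pan-neuronal markers were present, with 0 of 10 at or under a dim level of 4.48 (the 75th percentile of the means of 1015 olfactory receptor genes), and the mean of the list lay at 8.15 to 8.77 on the SP600125 arrays and 8.55 to 8.94 on the DMSO arrays. Fibroblast markers were present too, again with 0 of 10 at the dim level. SP600125 replicate b stood apart from the other SP600125 arrays for several collagens, so the results are also given without the b arrays of both groups. In RNA from a whole culture, fewer cells of a type and less RNA per cell cannot be told apart.

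Of the 44 collagens, 13 were lower in SP600125 samples, 6 were higher and 25 did not pass. The lower share was 29.5%, against 29.9% of all genes tested, and the higher share was 13.6%, against 17.0% of all genes, so by these counts the family was close to the background. The median collagen change was -0.01, against -0.03 over all genes. The family was uneven, however: the chains of type I collagen, the fibril-associated Col12a1 and the short-chain Col8a1 were the 4 members that fell at least 1.5-fold, which is 9.09% of the collagens, against 1.38% of all genes. None of the 6 rises reached 1.5-fold. The SP600125 arrays lay wholly below the DMSO arrays for 11 collagens, with a background of 16.4% of all genes, and wholly above them for 0 collagens, with a background of 6.65%.

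**Figure D1:**
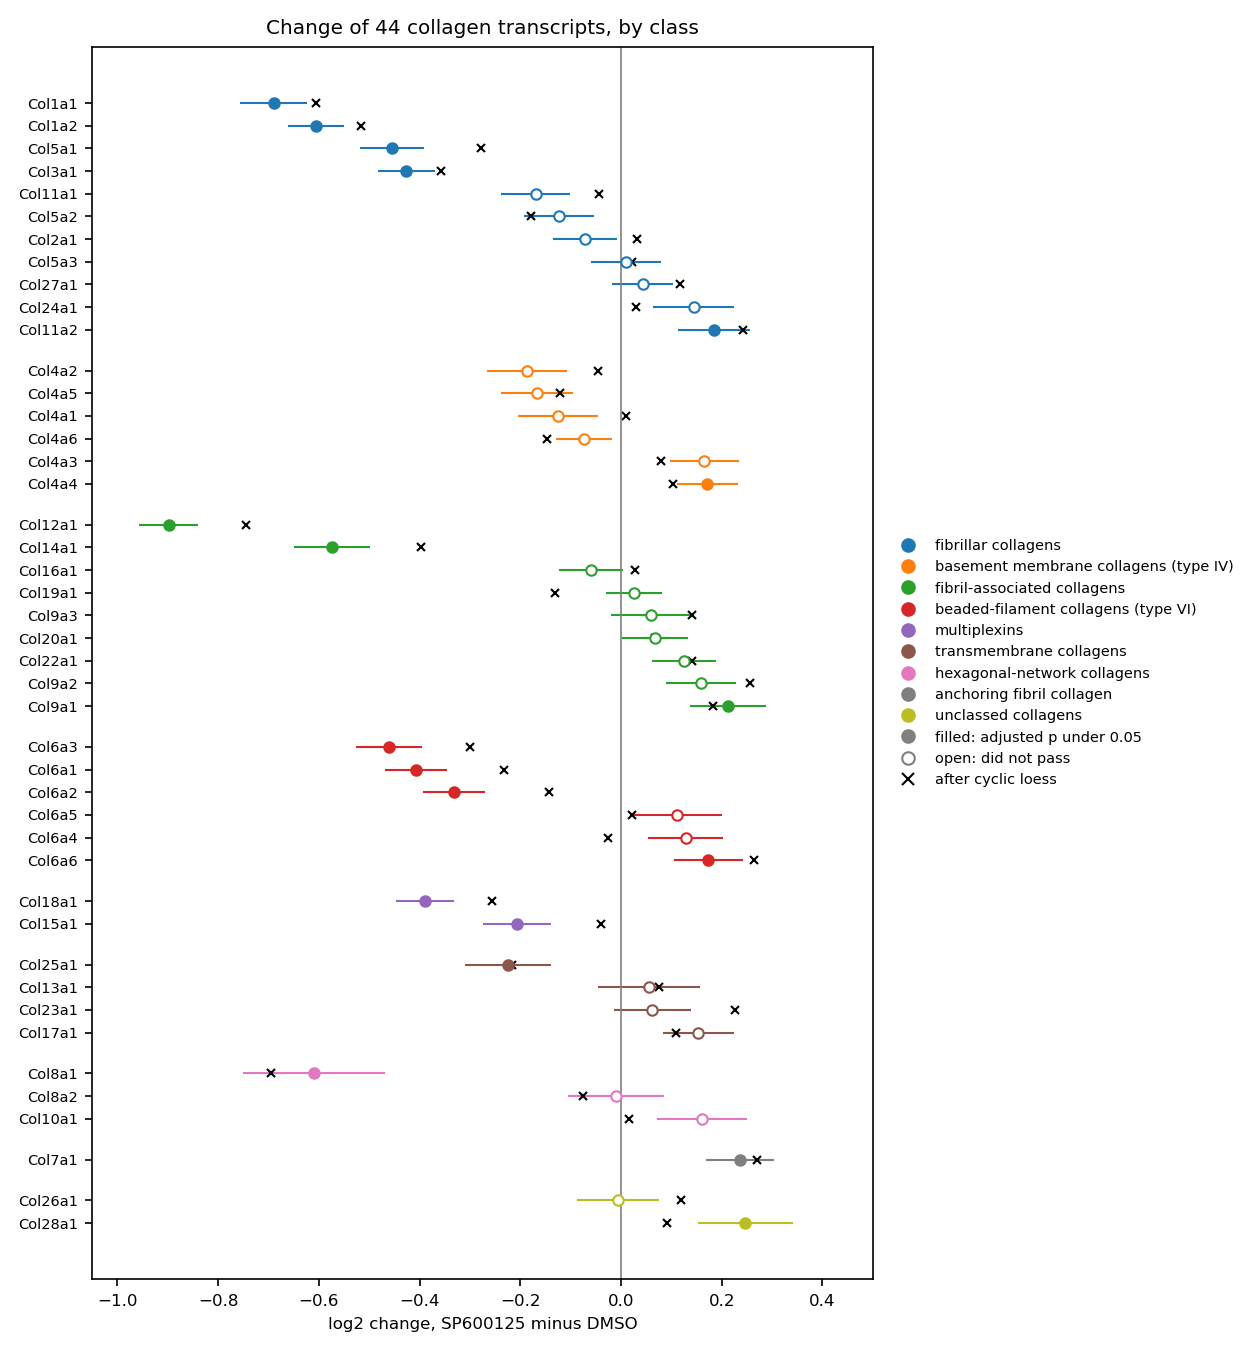
Change of each of the 44 collagen transcripts in log2 units, SP600125 minus DMSO, grouped by class. Circles are the limma estimates with bars of 1 SE, filled where the adjusted p was under 0.05, and crosses are the same change after cyclic loess. Col12a1 lies farthest left at -0.90, and no filled circle on the right exceeds 0.25. The type IV chains Col4a1 and Col4a2 have open circles at -0.12 and -0.19.

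Signal level moved with the change across the whole array. Among genes with a mean log2 value of at least 7, 62.1% were lower and 2.66% higher, whereas among genes under 7, 16.1% were lower and 23.1% higher. Of the 13 collagens in the upper range, 10 (76.9%) were lower and 0 higher, with a median change of -0.43, against -0.22 for all genes there. Falls of at least 1.5-fold were seen in 3 of these 13 collagens, against 182 of all 5978 genes in this range. Of the 31 collagens in the lower range, 3 (9.68%) were lower and 6 (19.4%) higher, with a median of 0.06, the same as for all genes there. The value of 7 was chosen after the values were seen. Olfactory receptor genes, which neurons in culture should hardly express, had array medians of 3.86 to 3.96 on SP600125 arrays and 3.59 to 3.76 on DMSO arrays. The part of this shift of the dimmest signals in the rises of weakly detected collagens was not tested. After cyclic loess, which evens out such level-dependent shifts between arrays, 10 collagens were lower and 5 higher, with backgrounds of 17.7% and 9.44%. In the upper range, 8 of the 13 collagens were then lower and 1 higher, against 1368 and 564 of all 5978 genes. In the lower range, 2 of the 31 collagens were then lower and 4 higher, against 2169 and 1318 of all 13960 genes.

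**Figure D2:**
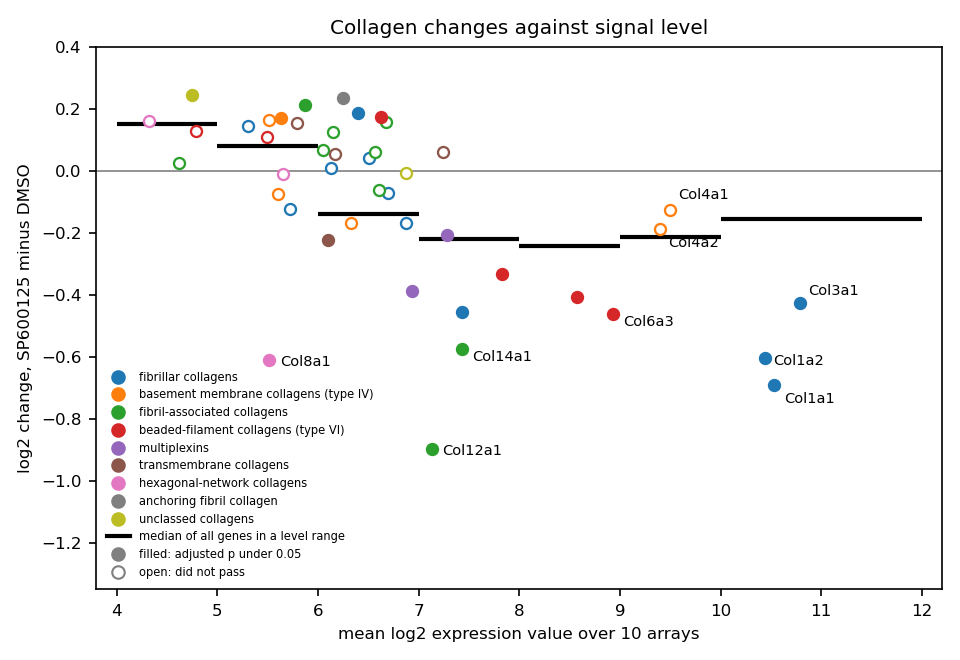
Change of each collagen in log2 units against its mean log2 expression value over the 10 arrays, with black lines for the median change of all genes in each range of level. Type I and III chains and Col12a1 lie below the line of their range, Col4a1 and Col4a2 lie close to it, and most members under a mean of 7 scatter around 0.

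JNK phosphorylates JUN, a part of the AP-1 transcription factor, so the region upstream of the collagen genes was read for the AP-1 element and for 3 other short elements. Upstream windows of 300 bases (250 before and 50 after each RefSeq transcription start, assembly GRCm38.p6) were matched for 35 of the 44 collagens, and letters were searched on both strands. Of the 13 lower collagens, 10 were matched. Col1a1, Col12a1 and Col14a1 had no window, so the letters upstream of these lower genes, among them the largest fall, were not read. The AP-1 element TGACTCA was in 5.2% of 32851 windows of all genes and in the window of 1 matched collagen, Col6a1, at 90 bases before the start. The CRE TGACGTCA was in 1.79% of all windows and in that of Col24a1 alone among the collagens. CCAAT, which was in 37.4% of all windows, was found in 13 collagens, 3 of the 10 matched genes that were lower and 10 of the 25 other matched genes. The GC box GGGCGG was in 35.7% of all windows and in 22 collagens, 6 of the 10 lower and 16 of the 25 others. These matches are descriptions of letters and not of bound sites. The 150 bases upstream of the start are shown for Col1a2, Col6a1 and Col8a1. Capitals mark the CCAAT box of this stretch in Col1a2 and the AP-1 element in Col6a1. In Col8a1 they mark the GC boxes of this stretch, which read on this strand as the reverse complement. Col1a2 has another CCAAT at the start itself, outside the stretch. These genes are shown because each is a lower gene of a different class that holds one of these elements. Each sequence reads 5′ to 3′ on the strand of the gene.
Col1a2, chr6:4505468-4505617 (plus strand): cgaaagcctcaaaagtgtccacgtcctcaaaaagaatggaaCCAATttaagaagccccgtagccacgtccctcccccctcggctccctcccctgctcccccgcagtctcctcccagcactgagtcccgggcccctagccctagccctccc
Col6a1, chr10:76726045-76726194 (minus strand): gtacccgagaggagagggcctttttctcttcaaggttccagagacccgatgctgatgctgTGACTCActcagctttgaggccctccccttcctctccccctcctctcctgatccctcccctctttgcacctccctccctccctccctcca
Col8a1, chr16:57754738-57754887 (minus strand): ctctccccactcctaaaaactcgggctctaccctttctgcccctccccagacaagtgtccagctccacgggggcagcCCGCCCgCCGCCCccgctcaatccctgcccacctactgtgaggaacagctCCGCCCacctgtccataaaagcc

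Among the fibrillar chains, 4 of 11 (36.4%) fell, 1 (9.09%) rose and 6 did not pass, with a median change of -0.12. Of all genes, 29.9% fell and 17.0% rose. The 4 that fell were the only fibrillar chains with a mean of at least 7, a range where 62.1% of all genes fell. Col1a1 and Col1a2 encode the chains of type I collagen, the main fibre of skin, bone and tendon. Col1a1 had log2 values of 10.09, 10.40, 10.15, 10.13 and 10.16 in SP600125 replicates a to e, against 10.82, 10.87, 10.90, 10.92 and 10.85 in DMSO replicates a to e. It fell by 0.69 (SE 0.07, adjusted p = 3.69e-05), a ratio of 0.62, and by 0.74 without the b arrays. Col1a2 had 10.08, 10.18, 10.16, 10.10 and 10.16 in SP600125 samples, against 10.66, 10.78, 10.75, 10.78 and 10.74 in DMSO samples. For both genes every SP600125 array lay below every DMSO array, and the gap between groups was wider than the spread within either. The change of Col1a2 was -0.61 (SE 0.06, adjusted p = 2.78e-05), and a CCAAT box of this gene stands in the first of the sequences above.

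Col3a1 encodes type III collagen, which runs with type I in distensible tissues such as vessel walls. Its values were 10.53, 10.62, 10.59, 10.57 and 10.55 in SP600125 samples, against 10.93, 11.07, 10.99, 11.03 and 10.97 in DMSO samples. The groups were apart, with a change of -0.43 (SE 0.06, adjusted p = 0.00018). Col5a1, a chain of the type V collagen that starts fibrils and limits their width, had 7.16, 7.37, 7.10, 7.17 and 7.24 in SP600125 samples, against 7.63, 7.77, 7.64, 7.60 and 7.68 in DMSO samples. It too was apart in every array and fell by 0.46 (SE 0.06, adjusted p = 0.000223). Its partner chains Col5a2 and Col5a3 did not pass. Col11a2, a chain of the type XI collagen of cartilage, was the fibrillar member that rose, by 0.19 (SE 0.07, adjusted p = 0.0457), but its SP600125 range of 6.33 to 6.71 overlapped the DMSO range of 6.20 to 6.43, and it no longer passed without the b arrays. The other fibrillar chains, Col2a1, Col11a1, Col24a1 and Col27a1 together with Col5a2 and Col5a3, had changes of -0.17 to 0.14 and adjusted p of 0.0554 to 0.914.

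**Figure D3:**
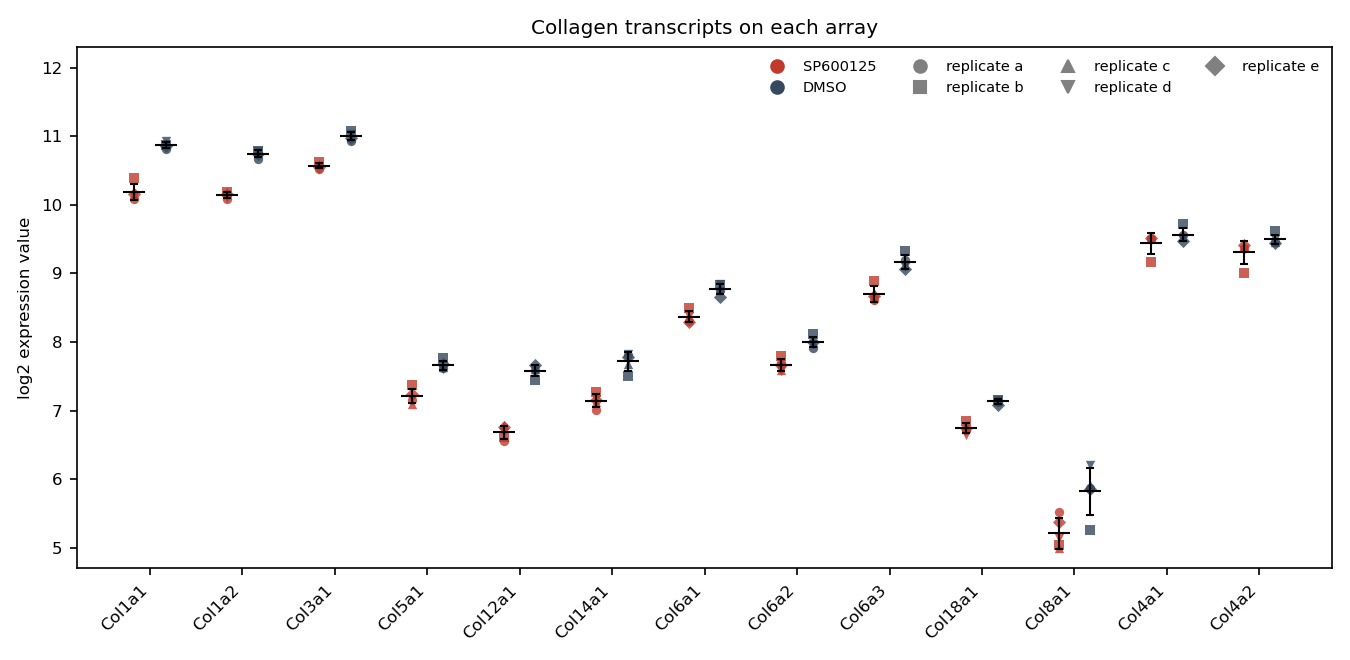
Log2 expression values of 13 collagens on each array, SP600125 in red at the left of each pair and DMSO in dark blue at the right, with symbols for replicates a to e and black bars for the mean and SD of 5 arrays. The 2 groups are apart for the plotted type I, III, V and VI chains, Col12a1, Col14a1 and Col18a1, and narrowly for Col4a2, and SP600125 replicate b lies above its group for Col1a1 and below it for Col4a1 and Col4a2.

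Fibril-associated collagens held the largest fall of the family. Of 9 members, 2 (22.2%) fell, 1 (11.1%) rose and 6 did not pass, with a median of 0.06, against 29.9% lower and 17.0% higher of all genes. Col12a1 and Col14a1, which fell, were its only members with a mean of at least 7. Col12a1, a collagen that coats type I fibrils in tissues under mechanical load, had 6.55, 6.62, 6.79, 6.68 and 6.77 in SP600125 samples, against 7.60, 7.44, 7.60, 7.59 and 7.67 in DMSO samples. The gap between the groups was wider than the spread inside either, and the change was -0.90 (SE 0.06, adjusted p = 2.79e-06), a ratio of 0.537. Col14a1, which binds fibrils in the same manner, had 7.004, 7.28, 7.12, 7.16 and 7.16 in SP600125 samples, against 7.81, 7.498, 7.67, 7.82 and 7.78 in DMSO samples. The groups were again apart, with the smallest gap between the b arrays, and the change was -0.57 (SE 0.07, adjusted p = 0.000167). Col9a1, a chain of the type IX collagen of cartilage fibrils, rose by 0.21 (SE 0.08, adjusted p = 0.034). It had 6.02, 6.09, 5.74, 5.94 and 6.10 in SP600125 samples, against 5.76, 5.94, 5.69, 5.84 and 5.60 in DMSO samples, and the groups overlapped. After cyclic loess it was at 0.18 (adjusted p = 0.0681). Col9a2, Col9a3, Col16a1, Col19a1, Col20a1 and Col22a1 did not pass, with changes of -0.06 to 0.16. After cyclic loess Col9a2 was higher, at 0.26 (adjusted p = 0.0153).

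Type VI chains form beaded microfilaments that link cells to the surrounding matrix, and the 3 classical chains fell together. They were the only type VI chains with a mean of at least 7, a range where 62.1% of all genes fell. Col6a1 had 8.31, 8.49, 8.37, 8.37 and 8.29 in SP600125 samples, against 8.76, 8.83, 8.78, 8.84 and 8.66 in DMSO samples, a change of -0.41 (SE 0.06, adjusted p = 0.000343). Col6a2 had 7.69, 7.80, 7.59, 7.58 and 7.66 in SP600125 samples, against 7.91, 8.11, 8.002, 7.97 and 7.99 in DMSO samples, a change of -0.33 (SE 0.06, adjusted p = 0.000999). Col6a3 had 8.62, 8.89, 8.72, 8.61 and 8.68 in SP600125 samples, against 9.20, 9.32, 9.13, 9.09 and 9.06 in DMSO samples. All 3 genes were apart on every array, and Col6a3 fell by 0.46 (SE 0.07, adjusted p = 0.000255). After cyclic loess Col6a2 no longer passed, with a change of -0.14 (adjusted p = 0.0931). Col6a6, which encodes one of the later-described alternatives to the Col6a3 chain, had 6.95, 6.77, 6.56, 6.66 and 6.62 in SP600125 samples, against 6.56, 6.83, 6.48, 6.47 and 6.35 in DMSO samples. Its groups overlapped, and the rise was 0.17 (SE 0.07, adjusted p = 0.0489), while its other probe set gave 0.09. Col6a4 and Col6a5 did not pass, and the 2 probe sets of Col6a5 differed in sign, at 0.11 and -0.03.

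Type IV collagen, the network of every basement membrane, had 6 chains measured, of which 0 fell, 1 (16.7%) rose and 5 did not pass. Of all genes, 29.9% fell and 17.0% rose. The difference between classes was not tested. Genes with a mean of 9 to 10, the range of Col4a1 and Col4a2, had a median change of -0.21. Col4a1 had 9.50, 9.17, 9.52, 9.48 and 9.52 in SP600125 samples, against 9.56, 9.73, 9.53, 9.52 and 9.47 in DMSO samples. Apart from the b arrays, the groups of Col4a1 lay on top of each other. The change was -0.12 (SE 0.08, adjusted p = 0.203), it was -0.02 without the b arrays (adjusted p = 0.807), and it was 0.01 after cyclic loess. Col4a2, its partner in the trimer, had 9.37, 9.01, 9.40, 9.35 and 9.41 in SP600125 samples, against 9.45, 9.61, 9.46, 9.50 and 9.44 in DMSO samples. Here every SP600125 array was below the DMSO arrays, by a small margin outside replicate b, and the change of -0.19 did not pass (SE 0.08, adjusted p = 0.0643). Both passed only on median-centred arrays, of the 4 other scalings, at -0.23 for Col4a1 (adjusted p = 0.024) and -0.29 for Col4a2 (adjusted p = 0.00572), and Col4a2 also with an intensity trend. The RefSeq starts of Col4a1 and Col4a2 lie 21 bases apart on opposite strands of chromosome 8.

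Col4a4, a chain of the specialised network of the kidney filter, rose by 0.17 (SE 0.06, adjusted p = 0.0329). It had 5.79, 5.77, 5.63, 5.81 and 5.60 in SP600125 samples, against 5.63, 5.64, 5.57, 5.47 and 5.43 in DMSO samples, with a narrow overlap, and after cyclic loess it was at 0.10 (adjusted p = 0.211). Col4a3, Col4a5 and Col4a6 had changes of 0.17, -0.17 and -0.07 and did not pass.

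The contrast between type I and type IV chains was also read within each array. Col1a1 minus Col4a1, set relative to the mean of the DMSO arrays, was -0.72, -0.09, -0.69, -0.66 and -0.67 in SP600125 replicates a to e, against -0.05, -0.17, 0.06, 0.09 and 0.07 in DMSO replicates a to e. Of the SP600125 arrays, replicate b alone fell inside the DMSO range. Col1a2 minus Col4a2 ran from -0.54 to -0.07 in SP600125 samples and from -0.08 to 0.055 in DMSO samples, again with overlap through replicate b alone. For the fibril-associated Col12a1, the difference from Col4a1 ran from -0.96 to -0.57 in SP600125 samples and from -0.30 to 0.18 in DMSO samples, with no overlap. A shift common to a whole array cancels in such differences, and they were not tested.

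The remaining classes were small. Both multiplexins, collagens of the basement membrane zone that carry glycosaminoglycan chains, fell, beside 29.9% of all genes. Col18a1, the source of the fragment endostatin, had 6.72, 6.84, 6.76, 6.65 and 6.75 in SP600125 samples, against 7.13, 7.16, 7.14, 7.16 and 7.08 in DMSO samples. Its groups were well apart, at -0.39 (SE 0.06, adjusted p = 0.000292). Col15a1 had 7.16, 7.41, 7.11, 7.11 and 7.09 in SP600125 samples, against 7.32, 7.54, 7.34, 7.30 and 7.40 in DMSO samples. It fell by 0.21 (SE 0.07, adjusted p = 0.0228) with overlap through SP600125 replicate b, and after cyclic loess the change was -0.04 (adjusted p = 0.664).

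Col8a1, a short-chain collagen of vessel walls and of the corneal endothelium, had 5.52, 5.04, 4.99, 5.14 and 5.37 in SP600125 samples, against 5.87, 5.26, 5.91, 6.20 and 5.86 in DMSO samples. Only DMSO replicate b reached into the SP600125 range, and the change was -0.61 (SE 0.14, adjusted p = 0.00376). Its relatives Col8a2 and Col10a1 did not pass, and Col10a1 was the 1 collagen at or under the dim level. Col25a1, a transmembrane collagen made by neurons, had 5.95, 6.35, 5.81, 6.00 and 5.83 in SP600125 samples, against 6.20, 6.22, 6.25, 6.26 and 6.13 in DMSO samples. SP600125 replicate b was the highest of all its arrays, and the fall of 0.22 passed narrowly (SE 0.09, adjusted p = 0.0432) and, almost as large at -0.22, did not pass after cyclic loess (adjusted p = 0.0534). The other transmembrane collagens, Col13a1, Col17a1 and Col23a1, did not pass, with changes of 0.06 to 0.15. After cyclic loess Col23a1 was narrowly higher, at 0.23 (adjusted p = 0.0495).

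Col7a1, which forms the anchoring fibrils that fasten epidermis to dermis, had 6.52, 6.51, 6.22, 6.35 and 6.25 in SP600125 samples, against 6.08, 6.28, 6.19, 6.14 and 5.98 in DMSO samples. The groups overlapped in a narrow band, and the rise was 0.24 (SE 0.07, adjusted p = 0.0118). Col28a1, found in mice mainly around peripheral glia, had 5.26, 5.002, 4.57, 4.96 and 4.60 in SP600125 samples, against 4.60, 4.69, 4.57, 4.64 and 4.64 in DMSO samples. It was scattered in the SP600125 group and even in the DMSO group, with a change of 0.25 (SE 0.09, adjusted p = 0.0446). After cyclic loess its change was 0.09 (adjusted p = 0.466), as it was after quantile normalization (adjusted p = 0.472). The change of Col26a1 was -0.01 (adjusted p = 0.954).

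Within each drug batch the 13 falls and the 6 rises kept their signs. They were picked by the fit over both batches of these same arrays, which favours equal signs. The agreement is therefore no separate support. Col12a1 changed by -0.93 in batch 1 and -0.88 in batch 2, Col1a2 by -0.59 and -0.62, and Col3a1 by -0.43 in both. Wider differences between batches were seen for Col8a1, at -0.29 in batch 1 and -0.82 in batch 2, for Col4a1, at -0.31 and -0.0019, and for Col28a1, at 0.48 and 0.09. A test of the difference itself, the interaction of treatment and drug batch, called 0.0% of all genes, and the smallest adjusted p of any collagen was 0.519. At an unadjusted p under 0.05 it held 1852 genes and 3 collagens, Col4a1, Col8a2 and Col28a1. Batch 1 has 2 arrays per group, 1 of them replicate b.

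**Figure D4:**
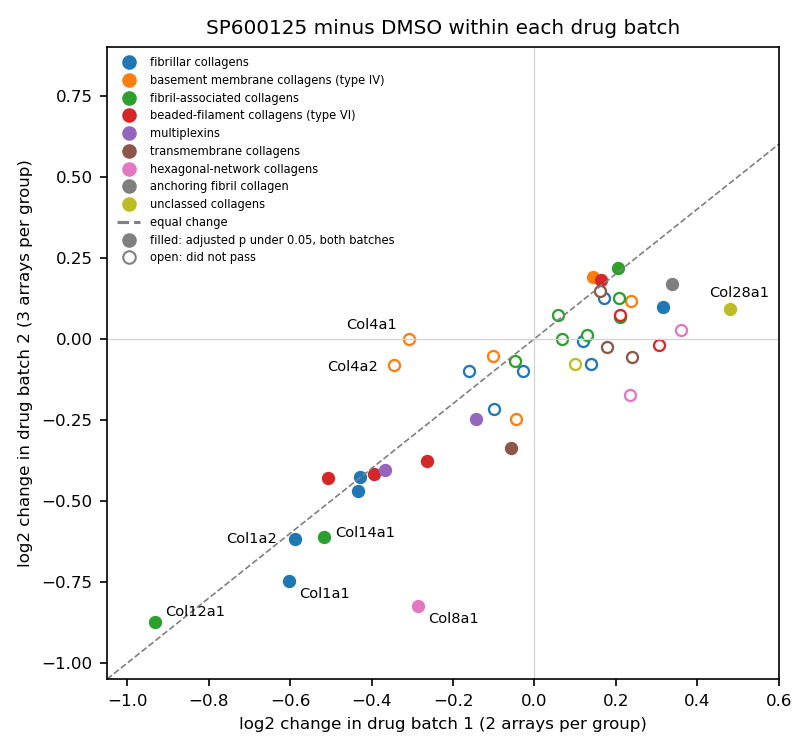
Log2 change, SP600125 minus DMSO, of each collagen in drug batch 2 (vertical, 3 arrays per group) against drug batch 1 (horizontal, 2 arrays per group), with the dashed line marking equal change. Filled symbols, the members that passed with both batches, lie at the lower left or upper right, and Col8a1, Col4a1 and Col28a1 lie farthest from the line among the labelled genes.

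Under each of 4 other scalings of the arrays, 10 of the 13 falls passed: Col1a1, Col1a2, Col3a1, Col5a1, Col6a1, Col6a3, Col8a1, Col12a1, Col14a1 and Col18a1. Col6a2, Col15a1 and Col25a1 did not pass under at least 1 of them. The set of falls of at least 1.5-fold also depended on the scaling. Col1a2 was short of it after cyclic loess, at -0.52. With centring on named genes, Col1a2 and Col8a1 were both short of it, each at -0.57. On median-centred arrays Col14a1 reached it, at -0.67. Of the 6 rises, 0 passed under all 4. Col6a6, Col7a1 and Col11a2 did not pass on median-centred arrays but passed under the other scalings. After cyclic loess they were at 0.26 (adjusted p = 0.014), 0.27 (adjusted p = 0.00626) and 0.24 (adjusted p = 0.0163). Col4a4, Col9a1 and Col28a1 passed only with centring on named genes. Without the b arrays all 13 falls passed again, and of the rises Col11a2 and Col28a1 did not.

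The genes that modify, process, bind and break down collagen were read from lists written with earlier results of these data known. The counts stand beside backgrounds of 29.9% lower and 17.0% higher over all genes, and of 62.1% lower and 2.66% higher among genes with a mean of at least 7. After cyclic loess the backgrounds over all genes were 17.7% lower and 9.44% higher. Of 18 enzymes and chaperones of chain modification and folding, whose median level was 7.60, 10 (55.6%) fell and 0 rose, with a median change of -0.25, against -0.22 for all genes at a mean of at least 7. That share was not above the background at this level, and 3 of the 18 were lower after cyclic loess. Fkbp14, a prolyl isomerase of the endoplasmic reticulum, averaged 6.39 ± 0.22 in SP600125 samples and 6.94 ± 0.08 in DMSO samples (SD, n = 5 each) and fell by 0.55 (SE 0.09, adjusted p = 0.000516). Colgalt2, a collagen galactosyltransferase, fell by 0.47 (SE 0.08, adjusted p = 0.000851), and P3h4, a partner of the lysyl and prolyl hydroxylases, by 0.40 (SE 0.07, adjusted p = 0.000533). Of 11 genes of procollagen processing and cross-linking, 5 (45.5%) fell and 0 rose, and 4 were lower after cyclic loess. The median change there was -0.12, at a median level of 6.16.

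Tll1, a protease that trims procollagen, averaged 5.03 ± 0.32 in SP600125 samples and 5.78 ± 0.21 in DMSO samples (SD, n = 5 each), a change of -0.75 (SE 0.14, adjusted p = 0.000999). Pcolce, which enhances that cleavage, averaged 7.88 ± 0.14 in SP600125 samples and 8.55 ± 0.22 in DMSO samples, a change of -0.67 (SE 0.06, adjusted p = 2.64e-05). Lox, the oxidase that starts cross-links between collagen molecules, averaged 7.08 ± 0.14 in SP600125 samples and 7.68 ± 0.07 in DMSO samples, a change of -0.61 (SE 0.07, adjusted p = 0.000114). For Pcolce and Lox the groups were apart on every array, and for Tll1 they overlapped.

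Of 8 small proteoglycans that regulate fibrils, 2 (25.0%) fell, 1 rose and 5 did not pass, with a median of -0.17, so that the lower share was under that of all genes. Aspn and Prelp each fell by 0.31 (SE 0.07, adjusted p = 0.00426 for Aspn and SE 0.06, adjusted p = 0.0012 for Prelp), and Kera, at the dim level, rose by 0.16 (SE 0.06, adjusted p = 0.044). After cyclic loess neither Aspn (adjusted p = 0.265) nor Prelp (adjusted p = 0.11) passed, and Fmod, which had not passed before, was the 1 lower member, at -0.26 (adjusted p = 0.0339), with 0 higher. Among 10 collagen receptors, 3 (30.0%) fell and 0 rose, with a median of -0.07, and the lower share was that of all genes, 29.9%. After cyclic loess 3 receptors were lower, and 1, Adgrg1, was higher, at 0.18 (adjusted p = 0.0277). Ddr2 and Ddr1, receptor kinases that collagen switches on, fell by 0.50 (SE 0.06, adjusted p = 9.38e-05) and 0.47 (SE 0.06, adjusted p = 0.000189), and Itgb1, the common chain of the collagen-binding integrins, by 0.32 (SE 0.06, adjusted p = 0.00092). Of 11 genes of collagen degradation, 4 (36.4%) fell, 1 (9.09%) rose and 6 did not pass, with a median of 0.09. They were Timp2 and Timp3, inhibitors of matrix metalloproteinases, at -0.39 (SE 0.06, adjusted p = 0.000365) and -0.37 (SE 0.07, adjusted p = 0.00112), the proteases Mmp2 at -0.31 (SE 0.06, adjusted p = 0.00198) and Mmp14, and the gelatinase Mmp9, which rose by 0.25. After cyclic loess Timp2 and Timp3 were lower, Mmp2 and Mmp14 no longer passed, Mmp9 was at 0.11 (adjusted p = 0.354), and Timp4, which had not passed before, was higher by 0.35 (adjusted p = 0.00859).

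**Figure D5:**
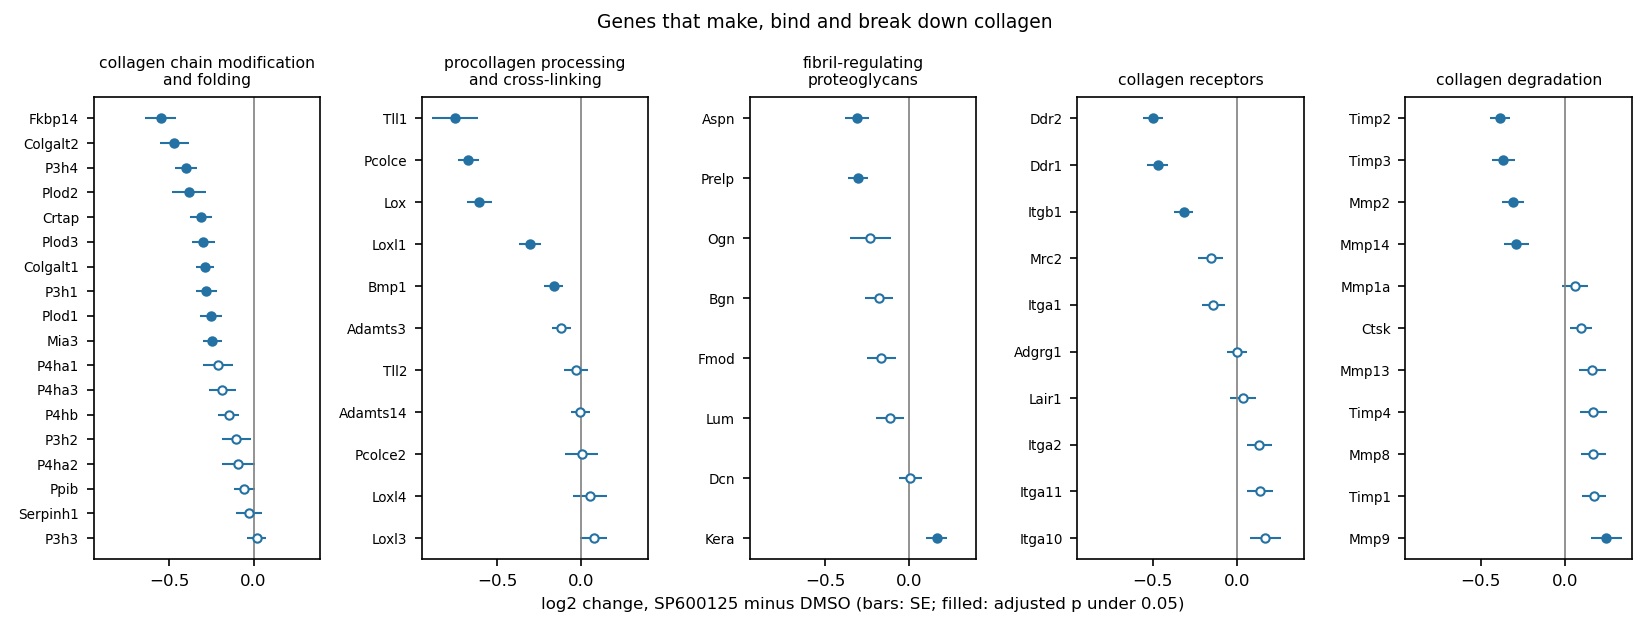
Log2 change, SP600125 minus DMSO, of the measured members of 5 lists of collagen-related genes, with bars of 1 SE and filled circles for an adjusted p under 0.05. Filled circles of the first 2 panels all lie left of 0, led by Tll1 at -0.75, and Kera and Mmp9 are the filled circles on the right.

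Markers of cells that could make the collagens were read beside these results, against the same backgrounds. Of 10 fibroblast markers, whose median level was 7.72, 4 (40.0%) fell and 0 rose, with a median of -0.13, against 62.1% and -0.22 for all genes at a mean of at least 7, and the list mean lay at 7.62 to 7.69 on SP600125 arrays and 7.78 to 7.85 on DMSO arrays. Prrx1 and Postn each fell by 0.41 (SE 0.06, adjusted p = 0.000276 for Prrx1 and SE 0.06, adjusted p = 0.000373 for Postn). Dcn, a proteoglycan made in quantity by fibroblasts, averaged 10.53 ± 0.20 in SP600125 samples and 10.53 ± 0.08 in DMSO samples (SD, n = 5 each), a change of 0.01 (SE 0.07, adjusted p = 0.954). Lum and Pdgfrb did not pass, at -0.11 and -0.14. Dcn and Lum are also on the proteoglycan list.

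Of 10 pericyte and smooth muscle markers, 3 fell and 2 rose, close to the 29.9% and 17.0% of all genes. The median change was 0.13, with a list mean of 5.49 to 5.64 on SP600125 arrays and 5.51 to 5.66 on DMSO arrays. Tagln and Acta2, proteins of the contractile apparatus, fell by 0.64 (SE 0.10, adjusted p = 0.000373) and 0.62 (SE 0.06, adjusted p = 3.58e-05), and Cnn1 and Abcc9 rose by 0.30 (SE 0.09, adjusted p = 0.0176) and 0.24 (SE 0.09, adjusted p = 0.0321). Of the others, Notch3 fell by 0.16, and the 5 that did not pass had changes above 0. Of 8 meningeal markers, 2 (25.0%) fell and 1 (12.5%) rose, with a median of -0.06 and a list mean of 6.36 to 6.43 on SP600125 arrays and 6.41 to 6.58 on DMSO arrays. Igfbp2 fell by 0.61 (SE 0.06, adjusted p = 5.25e-05) and Zic1 by 0.47 (SE 0.09, adjusted p = 0.0015), while Slc6a13 rose by 0.30 (SE 0.08, adjusted p = 0.0112). Of 10 endothelial markers, all with a mean under 7, 1 fell and 4 (40.0%) rose, with a median of 0.07. Among all genes under a mean of 7, 16.1% fell and 23.1% rose, with a median of 0.06. The mean of the endothelial list lay at 5.32 to 5.43 on SP600125 arrays and 5.22 to 5.32 on DMSO arrays. Vwf rose by 0.35 (SE 0.07, adjusted p = 0.00142) and Tie1 by 0.33 (SE 0.07, adjusted p = 0.00226).

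Among neural cell types, 9 of 10 (90.0%) pan-neuronal markers fell, with a median of -0.57, against 62.1% and -0.22 for all genes at a mean of at least 7. Their median level was 8.94, and 7 were lower after cyclic loess. Elavl4 fell by 0.81 (SE 0.12, adjusted p = 0.000295) and Syp by 0.67 (SE 0.13, adjusted p = 0.00113). Elavl4 was the 1 marker of this list whose SP600125 arrays all lay below its DMSO arrays. The list means overlapped, at 8.15 to 8.77 on SP600125 arrays and 8.55 to 8.94 on DMSO arrays. Batch 1 alone, with 2 arrays per group, gave a list median of -0.28, against -0.73 from batch 2 alone. This difference between the list medians was not tested. Of 10 astrocyte markers, 4 (40.0%) fell and 2 rose, with a median of 0.03 and a list mean of 8.50 to 8.59 on SP600125 arrays and 8.53 to 8.59 on DMSO arrays, at a median level of 8.30. Gfap fell by 0.36 (SE 0.06, adjusted p = 0.000877), while Glul rose by 0.21 (SE 0.06, adjusted p = 0.01) and Gja1 by 0.21 (SE 0.08, adjusted p = 0.0429). Of 9 oligodendrocyte lineage markers, 5 (55.6%) fell and 0 rose, at a median level of 6.58 and with a list mean of 6.85 to 6.90 on SP600125 arrays and 7.01 to 7.10 on DMSO arrays. Of 10 microglia markers, 0 fell and 5 (50.0%) rose, against 23.1% of all genes under a mean of 7, with a list mean of 4.89 to 5.08 on SP600125 arrays and 4.72 to 4.91 on DMSO arrays, and 5 of the 10, Aif1, Csf1r, Itgam, P2ry12 and Ptprc, were at or under the dim level. After cyclic loess, 2 fibroblast, 2 pericyte, 3 meningeal, 2 endothelial, 2 astrocyte, 3 oligodendrocyte and 0 microglia markers were lower. In the same order, 0, 0, 0, 2, 4, 0 and 2 were higher. The part of any of these cell types in the collagen changes was not tested.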

How the data were processed

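Whole-transcript arrays were hybridised with labelled total RNA, per the labels' protocols. The authors deposited log2 expression values for 35556 probe sets on each array. The submitters' processing notes name oligo 1.14.0; how background, normalization and summarization were handled is not given in the sources used here. The log2 scale was inferred from a range of 1.8984 to 13.8294. The values were used as deposited, and the number of arrays limits the precision. Probe sets with 1 symbol (21789) gave 19938 genes, named from the platform annotation. Upstream sequences came from RefSeq (GRCm38.p6).

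Two-sided tests used lmFit and eBayes of limma 3.58.1 (R 4.3.3), with treatment and drug batch as terms and 7 residual degrees of freedom, and the fit was tested on simulated data. Dim meant a mean at or under 4.48, the 75th percentile of 1015 olfactory receptor genes. The members, lists and tests were chosen with earlier results of these data known. Array values are given for Col1a1, Col1a2, Col3a1, Col4a1, Col4a2, Col12a1 and up to 4 members per class with the largest change past the threshold, and up to 3 genes are named per related list and 2 per marker list. Mmp14, Timp4, Fmod, Adgrg1, Dcn, Lum, Pdgfrb, Cnn1, Abcc9, Notch3, Slc6a13, Glul, Gja1, and the values of members beyond that rule, were chosen after their values were seen. Alternatives were other scalings, no batch term, a replicate block, an intensity trend, a filter on dim genes, probe set means, single arrays left out and each batch alone. Leaving out the b arrays, and the count of fibrillar chains, were added after seeing the data.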

Additional observations from a re-analysis of the deposited data

Results flagged for a closer look

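Of 40 groups of 5 arrays checked over 20 collagens, 4 held an array far from the other members of its group, and chance alone gives about 1 such group in 20. All 4 were SP600125 replicate b. It was the highest SP600125 array for Col1a1, at 10.40, where the other SP600125 arrays lay at 10.09 to 10.16. It was also the highest for Col15a1, at 7.41. It was the lowest for Col4a1, at 9.17, and for Col4a2, at 9.01. DMSO replicate b was the highest DMSO array for Col4a1 and Col4a2, so the difference within drug batch 1 was enlarged from both sides, at -0.31 for Col4a1 and -0.35 for Col4a2. The reason why this array stood apart was not tested.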

How the results depend on the processing

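The count of 13 lower collagens was 10 to 15 under the alternatives other than batch 1 alone and median centring. Median centring gave 21 lower, 0 higher, 7 lower fibrillar chains and a median collagen change of -0.11, while moving the median of all genes to -0.13, against -0.03 as deposited. Batch 1 alone called 0 collagens lower, 0 higher and 0 fibrillar chains lower. It has 2 arrays per group and called 1 gene in all. The 6 rises were less stable: 10 with centring on named genes, 2 with no batch term, 2 with the replicate block and 0 with batch 2 alone. Leaving out single arrays gave 11 to 13 lower and 1 to 7 higher, with 1 higher without DMSO replicate a, SP600125 replicate a or SP600125 replicate d, 2 without DMSO replicate e, and 3 without DMSO replicate c or SP600125 replicate b. Apart from median centring, the median collagen change was -0.06 to 0.06. The change of Col4a1 turned to 0.0106 after cyclic loess. No pairing by replicate letter was seen in same-letter deviations within batches, which correlated at -0.337 to 0.044. With 2 arrays per group in batch 1, letters a and b necessarily give the same value. These deviations cannot show whether same-letter samples shared a culture. The replicate block called 12 lower. Over the named genes, 350 comparisons kept direction and side of the threshold, 86 lost the call, 3 gained it and 1 reversed. Signal near the dim level limits what can be read of the weakly detected chains, and causes were not tested.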
